A study of Triticum turgidum subsp. durum with 36 samples.

Results

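The TaZIFL transporter loci of tetraploid wheat are 7 genomic loci of 4 genes: TaZIFL1 on 3AS and 3B, TaZIFL2-like1 on 3B, TaZIFL3 on 4AL and 4BS, and TaZIFL7 on 5AL and 5BL. They were taken from 80168 loci with deposited counts. They were selected on measured values: each is the locus on the named chromosome arm whose mean normalized count in WT lay within 1 of the value listed by the study for that gene at all 3 times, heading (HD) and 12 and 22 days past anthesis (12 and 22 DAA). A normalized count is a read count divided by a median-of-ratios size factor of its library, computed over all 36 libraries. Every member had exactly 1 such locus. The largest gap of a match was between 0.100 and 0.499 counts, and the nearest other locus on the same arm was 10.6 to 115.9 counts away. Because WT means chose the loci, the levels of WT over time are given below as a description with no test. The tests of mutants against WT also have these WT values on one side, so they are not independent of the choice of loci, and every P value against WT below carries that limit.

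The study compared flag leaves of Kronos durum wheat at the 3 time points in 3 genotypes, with 4 biological replicates in each of the 9 groups. The gpc-A1 and gpc-B2 alleles (gpc-a1 and gpc-b2 in the sample labels) are chemically induced premature stop codons from a mutant population, backcrossed to Kronos, and plants of all genotypes were siblings grown in a greenhouse. The genotypes were WT, gpc-A1 (the single mutant) and gpc-A1/gpc-B2 (called the double mutant below). All plants, WT included, also carry the natural Kronos insertion that makes GPC-B1 non-functional, so gpc-A1 plants have no functional GPC1 gene. Every group kept a working GPC-A2 copy, so the double mutant retains some GPC2 function. A library holds the RNA of a single, entire flag leaf, in which fewer cells of a type and less RNA per cell cannot be told apart. GPC genes encode NAC transcription factors, and GPC1 hastens senescence and the movement of nitrogen, zinc and iron from leaf to grain. In the study's field trials, gpc-B2 did not significantly change senescence or grain protein, zinc and iron. A stop codon need not change the transcript level, so the counts per locus do not check the genotype labels. Replicate 1 of gpc-A1 at HD has conflicting labels, since its genotype field reads wild type, and it was grouped by its title. The authors also examined the reads over the mutated sites in each sample to check its genotype, a check that was not repeated here.

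ZINC-INDUCED FACILITATOR-LIKE (ZIFL) proteins are transporters of the major facilitator superfamily. In Arabidopsis, ZIF1 sits in the vacuolar membrane, and zif1 mutants are hypersensitive to zinc. Nicotianamine, a small chelator of zinc and iron made by nicotianamine synthase (NAS), is moved into the vacuole by ZIF1, and a rice relative, TOM1, releases the phytosiderophore deoxymugineic acid from cells. Nicotianamine is turned into that phytosiderophore through nicotianamine aminotransferase (NAAT). The roles of the wheat proteins are not known from these data, and no sequence of them is shown.

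The libraries held 13754124 to 48981831 counts (median 19377651). Replicate 4 of the 12 DAA WT group was the deepest, at 2.53 times this median. All 7 loci passed the filter on low counts (over 3 reads in 2 or more replicates of any group), as did 75375 loci in all. The 48 loci described as chlorophyll a-b binding, Rubisco or photosystem proteins were detected in all 36 libraries. They held 1.99% to 10.9% of the counts, and no locus among the 739 with a description used here matched a grain storage protein. The median share of these chloroplast markers at the 3 times in order was 10.1%, 7.40% and 3.30% in WT. It was 8.26%, 7.41% and 3.57% in gpc-A1, and 8.15%, 4.44% and 3.54% in the double mutant, lower at each later time. Its part in the changes below was not tested.

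The positions are those of the chromosome arm contigs of hexaploid wheat to which the authors mapped reads. TaZIFL1 lay on 3AS contig 3335115 from base 289 to 7220 and on 3B contig 10730106 from 2887 to 7639. TaZIFL2-like1 lay on 3B contig 10769360 from 309 to 9751. TaZIFL3 lay on 4AL contig 7064781 from 3518 to 8559 and on 4BS contig 4884666 from 3611 to 13951. TaZIFL7 lay on 5AL contig 1314237 from 431 to 5200 and on 5BL contig 10923675 from 1046 to 4109. A locus is a range covered by aligned transcripts, introns included, and its exons and UTRs were not analysed here. The TaZIFL7 5BL contig was the only one of the 7 with another locus, whose group means were between 2.07 and 12.0 normalized counts. Since only uniquely mapped reads of 50 bases were counted, reads from stretches shared by A and B copies are missing from both.

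**Figure D1:**
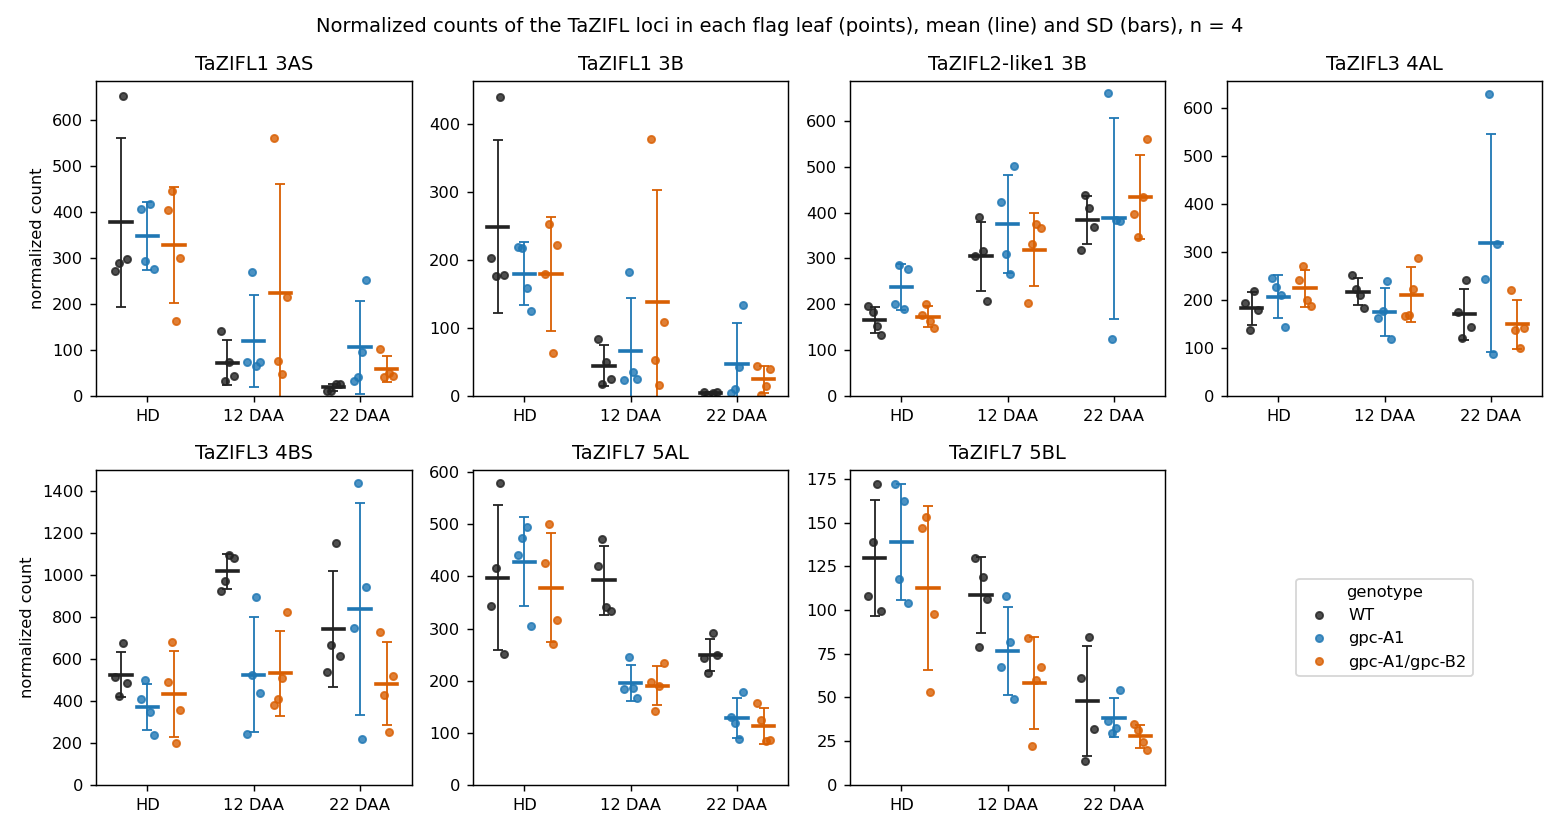
Normalized counts (y axis, from 0) of the 7 loci at HD, 12 DAA and 22 DAA. Points are single flag leaves of WT, the single and the double mutant, lines are means and bars are SD over 4 libraries, with bars that pass below 0 cut there. In TaZIFL7 5AL at 12 DAA, the 4 WT leaves lay between 334.2 and 472.8, and those of both mutants at or below 245.3.

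TaZIFL7 was lower at 22 DAA than at HD in both mutants, with lower means in WT too, and its 5AL copy was lower than WT in both mutants at 12 DAA. In gpc-A1, the 5AL copy had 440.3, 473.1, 494.5 and 304.6 normalized counts at HD in replicates 1 to 4. It had 184.6, 245.3, 186.3 and 166.3 at 12 DAA, and 129.6, 118.9, 87.2 and 178.1 at 22 DAA. Every HD library of gpc-A1 was above every later one, while the 12 DAA and 22 DAA groups overlapped. In the double mutant, the values were 426.1, 500.4, 271.1 and 316.3 at HD, 196.6, 141.6, 189.4 and 233.6 at 12 DAA, and 157.5, 124.5, 83.7 and 86.6 at 22 DAA. Here too, no HD library overlapped a later one. Over all 75375 tested loci, HD and 12 DAA did not overlap for 6501 in gpc-A1 and 10648 in the double mutant. For HD and 22 DAA, these numbers were 16135 and 16670.

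From HD to 22 DAA, TaZIFL7 5AL fell by 1.77 ± 0.24 (log2, SE) in gpc-A1 (n = 4 and 4, edgeR adjusted P = 0.0036) and by 1.75 ± 0.24 in the double mutant (edgeR adjusted P = 0.00087). The group means dropped from 428.1 ± 85.3 (SD, n = 4) to 128.5 ± 37.7 in gpc-A1 and from 378.5 ± 104.1 to 113.1 ± 34.97 in the double mutant. It was lower in 4 of 4 pairs of libraries with the same replicate number, which were sequenced together, in each mutant. The 5BL copy fell by 1.89 ± 0.26 in gpc-A1 (edgeR adjusted P = 0.0038) and by 2.02 ± 0.32 in the double mutant (edgeR adjusted P = 0.0017). Its values were 172.1, 117.8, 162.4 and 104.2 at HD against 36.5, 30.0, 32.6 and 54.4 at 22 DAA in gpc-A1, with no overlap. The double mutant had 146.8, 153.2, 53.1 and 97.7 at HD against 34.6, 31.5, 24.8 and 20.1 at 22 DAA. The lowest HD leaf, replicate 3, remained above all 4 later leaves.

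These were the only members called in gpc-A1 between HD and 22 DAA, 2 of 7, where 2.52% of all tested loci were called (adjusted P of 0.01 or less). Both calls depended on the set of libraries, and so did the number of calls over all loci. That number was 1900 of 75375 in the test above. It was 793 with a block for each replicate number and 120 without replicate 1 of gpc-A1 at HD. Over all alternatives, the log2 change was -2.10 to -1.55 for 5AL and -2.22 to -1.74 for 5BL. In a fit with a block for each replicate number, the edgeR adjusted P was 0.016 for 5AL and 0.013 for 5BL, and without replicate 1 of gpc-A1 at HD, whose labels conflict, it was 0.018 and 0.019. Without replicate 1, 2 or 3 of both groups, neither copy was called.

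In WT, TaZIFL7 5AL had 342.5, 416.1, 579.7 and 250.7 normalized counts at HD. It had 420.9, 472.8, 341.6 and 334.2 at 12 DAA, and 243.1, 214.5, 291.1 and 248.4 at 22 DAA. The means of WT were thus nearly equal at HD and 12 DAA (397.2 ± 139.2 and 392.4 ± 66.4, SD, n = 4), and the 22 DAA mean was 249.3 ± 31.6. The WT values of the 5BL copy were 107.9, 139.0, 172.1 and 99.7 at HD and 61.004, 13.46, 84.64 and 31.96 at 22 DAA. They did not overlap, and the mean at HD was 2.71 times that at 22 DAA. Between genotypes at 12 DAA, the 5AL copy was lower than WT by 0.997 ± 0.16 (log2, SE) in gpc-A1, at 195.6 ± 34.3 (SD, n = 4, edgeR adjusted P = 0.0086). Relative to WT, it fell by 1.04 ± 0.17 in the double mutant, at 190.3 ± 37.8 (SD, n = 4, edgeR adjusted P = 0.0051). The WT libraries overlapped neither mutant, as was so for 6113 of 75375 loci against gpc-A1 and 13794 against the double mutant, and the mutant was lower in 4 of 4 pairs with the same replicate number in each comparison. TaZIFL7 5AL was the only member called in each of these comparisons, 1 of 7, where 0.508% and 2.05% of loci were called. Leaving out any replicate number ended both calls. Without the deepest library alone, chosen after seeing the data, the adjusted P was 0.016 against gpc-A1 and 0.011 against the double mutant. With the replicate block, the edgeR adjusted P of TaZIFL7 5AL was 0.0020 against gpc-A1 and 0.018 against the double mutant. Those fits called 664 and 1075 of all loci.

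The 5BL copy had 129.6, 79.1, 119.1 and 106.2 normalized counts in WT at 12 DAA, 67.2, 108.3, 81.5 and 49.2 in gpc-A1, and 83.8, 22.0, 59.8 and 67.5 in the double mutant. The groups overlapped, and the log2 differences from WT were -0.49 ± 0.23 (SE, edgeR adjusted P = 0.36) and -0.91 ± 0.31 (edgeR adjusted P = 0.082). At 22 DAA, TaZIFL7 5AL of WT did not overlap either mutant, as was so for 2334 of the 75375 loci against gpc-A1 and 6808 against the double mutant. The log2 difference was -0.98 ± 0.22 in gpc-A1 (edgeR adjusted P = 0.59) and -1.13 ± 0.21 in the double mutant (edgeR adjusted P = 0.032), both outside the threshold. At HD it was 0.12 ± 0.24 and -0.04 ± 0.26 (SE), with overlapping groups. Whether the time course of TaZIFL7 differed between WT and a mutant was not tested, because WT means chose the loci.

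**Figure D2:**
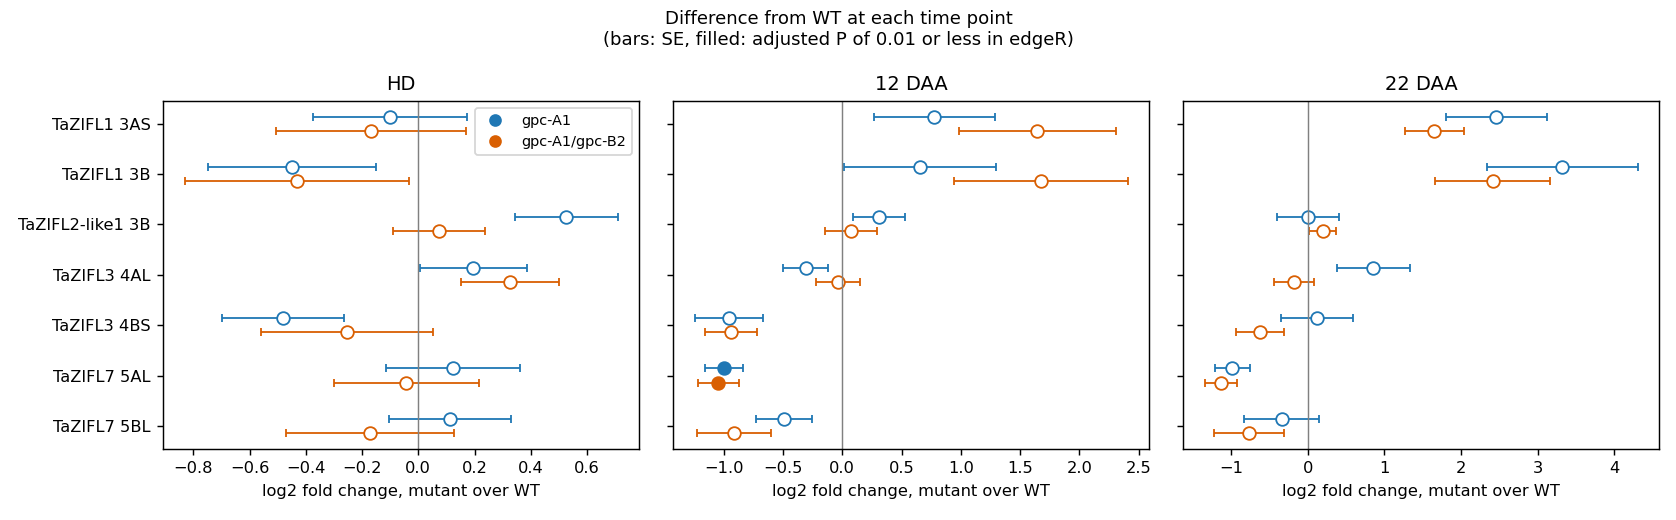
Log2 fold change of each mutant over WT (x axis, bars are SE) for the 7 loci (y axis) at HD, 12 DAA and 22 DAA, with a different x scale in each panel. Filled points passed an adjusted P of 0.01 in edgeR. The only filled points are those of TaZIFL7 5AL at 12 DAA, at -0.997 and -1.04.

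TaZIFL1 had its lowest levels in WT at 22 DAA, and both of its copies fell in the double mutant. In WT, TaZIFL1 3AS had 271.3, 289.9, 651.6 and 298.1 normalized counts at HD, 141.3, 32.9, 74.2 and 44.4 at 12 DAA, and 11.7, 11.8, 25.8 and 26.5 at 22 DAA. The 3 groups did not overlap, and the means were 377.7 ± 182.9 at HD, 73.2 ± 48.6 at 12 DAA and 18.9 ± 8.33 at 22 DAA (SD, n = 4). The 3B copy had 203.5, 176.5, 440.1 and 177.7 at HD and 6.3, 1.7, 5.2 and 5.5 at 22 DAA, where 2 to 7 reads lay behind each value. Replicate 3 at HD was the highest leaf for both copies.

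In the double mutant, TaZIFL1 3AS had 405.1, 445.2, 162.6 and 299.4 normalized counts at HD and 102.1, 40.7, 51.2 and 42.9 at 22 DAA, with no overlap. It fell by 2.47 ± 0.35 (log2, SE, edgeR adjusted P = 0.00093). The 3B copy went from 179.9, 253.1, 63.1 and 222.7 to 44.2, 2.3, 14.5 and 39.4, and fell by 2.86 ± 0.59 (SE, edgeR adjusted P = 0.0073). Its lowest HD leaf was above its highest 22 DAA leaf. At 12 DAA, the leaves of the double mutant spread widely, with 560.8, 75.4, 48.6 and 214.8 for 3AS and 378.1, 52.6, 16.2 and 109.6 for 3B. Replicate 1 was the highest for both copies, and the groups at HD and 12 DAA overlapped.

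In gpc-A1, TaZIFL1 3AS had 406.1, 293.4, 418.4 and 276.3 at HD, 73.3, 270.6, 64.6 and 74.8 at 12 DAA, and 33.6, 41.2, 96.7 and 251.8 at 22 DAA. HD did not overlap the later times, but a single leaf in each, replicate 2 at 12 DAA and replicate 4 at 22 DAA, came close to the HD values. The log2 change from HD to 22 DAA was -1.75 ± 0.56 (SE, edgeR adjusted P = 0.062) for 3AS and -1.94 ± 0.76 (edgeR adjusted P = 0.11) for 3B. The 3B copy had 4.8, 10.3, 43.1 and 133.9 at 22 DAA, against 124.6 to 218.9 at HD.

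At 22 DAA, every leaf of both mutants had more TaZIFL1 3AS than every WT leaf. Groups did not overlap, in either direction, for 2334 of 75375 loci against gpc-A1 and 6808 against the double mutant. The log2 difference from WT was 2.46 ± 0.66 (SE, edgeR adjusted P = 0.85) in gpc-A1 and 1.65 ± 0.39 (edgeR adjusted P = 0.074) in the double mutant, so neither passed the threshold. The mutant leaf was the higher in 4 of 4 pairs with the same replicate number in each comparison. For 3B, the difference was 3.32 ± 0.98 (edgeR adjusted P = 0.90) and 2.42 ± 0.75 (edgeR adjusted P = 0.16), and the groups overlapped.

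TaZIFL2-like1 on 3B rose in the double mutant, the only rise called among the members, and its means were higher at each later time in all 3 genotypes. In that mutant, it had 177.7, 201.7, 164.9 and 149.2 normalized counts at HD, 203.6, 332.3, 375.2 and 365.3 at 12 DAA, and 397.1, 346.5, 432.9 and 561.0 at 22 DAA. Every leaf at HD was below every later leaf. It rose by 1.32 ± 0.17 (log2, SE) from HD to 22 DAA (edgeR adjusted P = 0.00059), and in 4 of 4 pairs with the same replicate number. In WT, the values were 195.7, 184.4, 153.7 and 133.2 at HD and 317.6, 437.4, 409.8 and 368.9 at 22 DAA. The mean at 22 DAA in WT was 2.30 times that at HD, with no overlap.

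In gpc-A1, TaZIFL2-like1 3B had 201.2, 286.3, 189.8 and 277.4 at HD and 659.7, 124.5, 383.7 and 381.1 at 22 DAA. Replicate 2 at 22 DAA lay below every HD leaf, while the other 3 lay above them. The log2 change was 0.67 ± 0.41 (SE, edgeR adjusted P = 0.29). No genotype difference passed the threshold for this locus, and the log2 differences between genotypes were between -0.46 and 0.53.

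From HD to 22 DAA, 5 of 7 members were called in the double mutant, 1 higher and 4 lower, where 7.87% of all loci were called. The 4 lower calls are the A and B copies of TaZIFL1 and TaZIFL7, which are not independent of each other. The median log2 change of the 7 was -1.75, the value of TaZIFL7 5AL, against 0.01 over all loci. It was 0.06 over the 5 other ZIFL loci matched, so no fall of the whole family is read from it. Leaving out replicate 2 of both groups kept 1 call, and leaving out replicate 4 kept 0. TaZIFL1 3B was not called without replicate 1 either (edgeR adjusted P = 0.016), nor with all 36 libraries in a single fit (edgeR adjusted P = 0.015). The count was also 1, TaZIFL2-like1, when 4 tests of the kinds in the methods were combined. That rule called 3311 of 75375 loci, against 5930 by edgeR alone. It used DESeq2 where the study used DESeq, and edgeR's quasi-likelihood test, so it is not the study's exact rule.

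**Figure D3:**
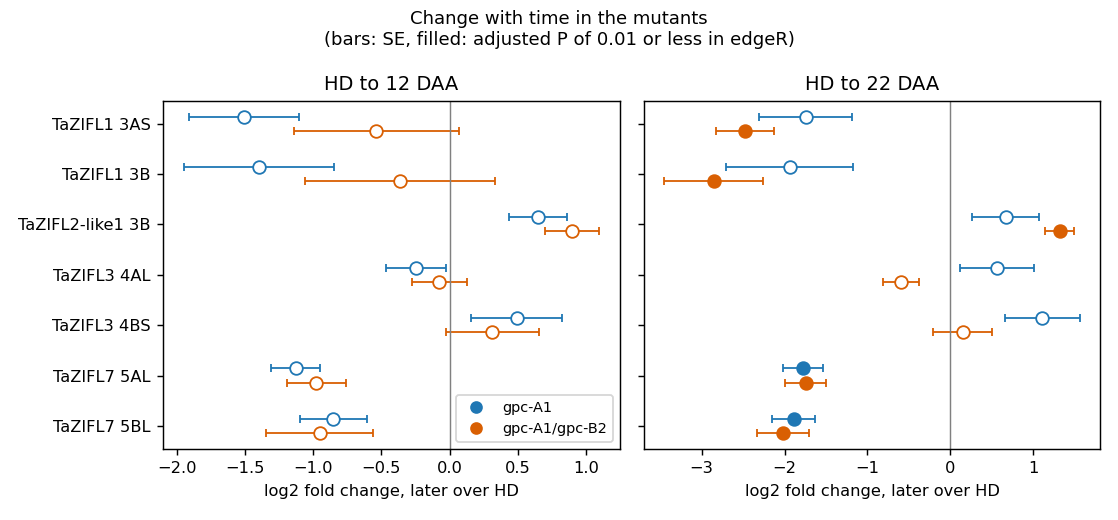
Log2 fold change from HD to 12 DAA and to 22 DAA (x axis, bars are SE) of the 7 loci (y axis) in gpc-A1 and the double mutant. Filled points passed an adjusted P of 0.01 in edgeR. By 22 DAA, 2 loci are filled in gpc-A1 and 5 in the double mutant, and the TaZIFL7 points of the mutants lie close together.

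TaZIFL3 had no call by edgeR in any tested comparison, and WT over time was not tested. DESeq2 called its 4BS copy between WT and the double mutant at 12 DAA (DESeq2 adjusted P = 0.0024), where it called 5161 of 75375 loci. In WT, TaZIFL3 4BS had 516.0, 425.9, 674.2 and 483.6 normalized counts at HD, 925.6, 972.2, 1096.8 and 1079.6 at 12 DAA, and 540.1, 664.6, 1152.9 and 615.5 at 22 DAA. The 12 DAA leaves were all above the HD leaves. At 12 DAA, gpc-A1 had 240.8, 525.6, 897.5 and 436.9, and gpc-A1/gpc-B2 had 380.5, 409.4, 511.0 and 825.8. All 8 mutant leaves lay below all 4 WT leaves, a separation that 6113 of 75375 loci had, in either direction, for gpc-A1 and 13794 for the double mutant. The log2 difference from WT was -0.95 ± 0.29 (SE, edgeR adjusted P = 0.14) in gpc-A1 and -0.94 ± 0.22 (edgeR adjusted P = 0.024) in the double mutant.

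At 22 DAA, TaZIFL3 4BS of gpc-A1 spread from 216.5 to 1439.8, wider than any other group of this locus. The 4AL copy spread from 88.3 to 630.0 in the same leaves, with replicate 3 lowest and replicate 2 highest for both copies. Outside this group, the means of 4AL stayed between 150.3 and 225.5. Its largest log2 change with time in the double mutant was -0.59 ± 0.22 (SE, edgeR adjusted P = 0.089), from HD to 22 DAA.

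The remaining tested comparisons held no call by edgeR among the members. From HD to 12 DAA, edgeR called 0 of 7 in gpc-A1 (0.325% of all loci), with 5 at an unadjusted P under 0.05. The share of all loci at an unadjusted P under 0.05 is not given. Nothing is read from member counts at that level, here or below. DESeq2 called 1 of 7 and 1519 of the 75375 loci. TaZIFL7 5AL was nearest to the edgeR threshold, at -1.13 ± 0.18 (log2, SE, edgeR adjusted P = 0.011, and 0.0069 with the replicate block, which called it). Over the same interval in the double mutant, edgeR called 0 (1.58% of all loci), with 3 at an unadjusted P under 0.05. DESeq2 called 3898 of all loci, 2 of them members. These 2 were TaZIFL7 5AL and TaZIFL2-like1 3B, at -0.98 ± 0.22 and 0.90 ± 0.20 (edgeR adjusted P = 0.024 for each). From 12 to 22 DAA, edgeR called 0 members and 0% of all loci in either mutant, with 2 members in gpc-A1 and 4 in the double mutant at an unadjusted P under 0.05. DESeq2 called 0 members there, and 1508 of all loci in gpc-A1 and 130 in the double mutant.

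At HD, edgeR called 0 members in the 3 comparisons of genotypes, where it called 0% of all loci for WT against gpc-A1, 0.00133% for WT against the double mutant and 0.00133% for the mutants against each other. The members at an unadjusted P under 0.05 numbered 2, 0 and 1. DESeq2 called 0 members in each, and 41, 46 and 39 of all loci. At 22 DAA, edgeR called 0 members against gpc-A1 (0% of all loci) and 0 against the double mutant (0.186%), with 3 at an unadjusted P under 0.05 in each. DESeq2 called 0 and 2, the latter TaZIFL1 3AS and TaZIFL7 5AL. It called 128 and 1669 of all loci there.

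The mutants were not shown to differ from each other in any member. Between them, edgeR called 0 members at 12 DAA (0.214% of all loci) and 0 at 22 DAA (0.0119%), with 0 at an unadjusted P under 0.05 and 0 by DESeq2 at both times. DESeq2 called 371 and 73 of all loci at these times. The difference between the mutants in their response from HD to 12 DAA and from HD to 22 DAA was called in 0 members and in 0.00133% of all loci each, by edgeR's interaction term. At an unadjusted P under 0.05 there were 0 and 1, the latter TaZIFL3 4AL (log2 difference -1.15 ± 0.54, SE, edgeR adjusted P = 0.95). For TaZIFL7 5AL the difference in response to 22 DAA was 0.03 ± 0.36, an SE that allows a difference in either direction.

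In WT, groups did not overlap for 4 of 7 members from HD to 12 DAA, 4 from HD to 22 DAA and 3 from 12 to 22 DAA. Over all tested loci the shares without overlap were 13.2%, 20.5% and 16.9%. Since WT means chose the members, nothing is read from these counts.

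Ordering the 9 groups by their mean put the 3 HD groups highest for both TaZIFL1 copies, and WT at 22 DAA lowest. For TaZIFL2-like1 3B, the 22 DAA groups came highest and the HD groups lowest. TaZIFL7 had its highest mean in gpc-A1 at HD and its lowest in the double mutant at 22 DAA for both copies. TaZIFL3 4BS was highest in WT at 12 DAA and lowest in gpc-A1 at HD, while 4AL was highest in gpc-A1 at 22 DAA and lowest in the double mutant at 22 DAA. Of the 56 pairs of neighbours in these orders, 55 overlapped. The exception was TaZIFL1 3AS in the double mutant and WT at 22 DAA.

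The A and B copies of a gene moved together over the 36 libraries, to differing degrees. Pearson's r of log2 normalized counts (1 added) was 0.95 for TaZIFL1, 0.84 for TaZIFL7 and 0.64 for TaZIFL3. After the group means were taken out, it was 0.87, 0.65 and 0.84. These points share library, depth and group, and no test was made. TaZIFL1 3AS and TaZIFL2-like1 3B had an r of -0.60 over all libraries and -0.15 within groups.

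**Figure D4:**
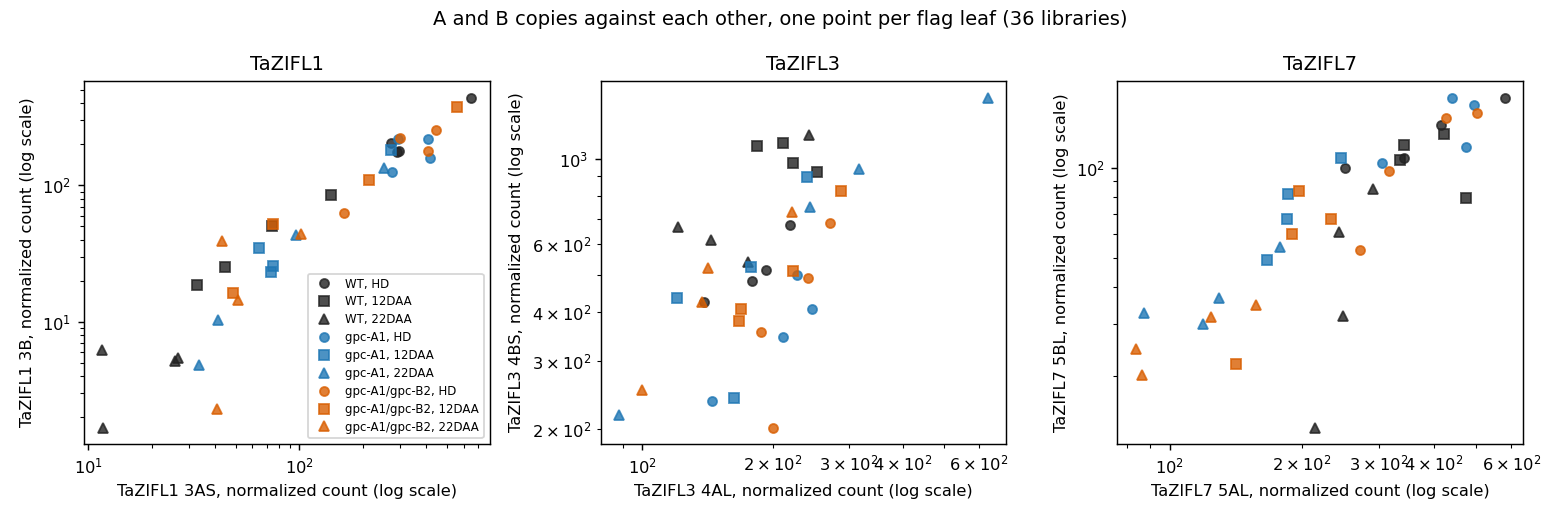
Normalized counts of the A copy (x axis, log scale) against the B copy (y axis, log scale) of TaZIFL1, TaZIFL3 and TaZIFL7, a point for each of 36 flag leaves, coloured by genotype and shaped by time. TaZIFL1 falls along a line from high counts at HD to low counts at 22 DAA, with r = 0.95, and TaZIFL3 scatters more, with r = 0.64.

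The share of the A copy in the reads of an A and B pair measures their balance within a leaf, and depends on how many unique bases each locus has. For TaZIFL3, the A share was 37.7%, 31.4%, 37.9% and 38.0% in gpc-A1 at HD and 24.6%, 30.4%, 29.0% and 25.2% at 22 DAA, with no overlap. The means were 36.2% ± 3.2 (SD, n = 4) and 27.3% ± 2.9, with an exact permutation P of 0.029, the smallest that 4 against 4 libraries allow, and 0.11 after adjustment over 12 tests. The double mutant had 36.5% ± 9.3 at HD and 24.4% ± 2.9 at 22 DAA (SD, n = 4, exact P = 0.029, adjusted P = 0.11). At 12 DAA, it was 17.7% ± 3.0 in WT, 27.1% ± 9.0 in gpc-A1 and 29.0% ± 2.2 in the double mutant (SD, n = 4, exact permutation P = 0.057 and 0.029 against WT, adjusted P = 0.17 and 0.11). Both tests use the WT counts that identified the loci. WT was also below both mutants at HD, where the leaves had 24.6% to 27.3% in WT. They had 31.4% to 38.0% in gpc-A1 and 28.5% to 49.9% in the double mutant. The mean in WT was 25.9% ± 1.5 at HD and 19.1% ± 3.9 at 22 DAA (SD, n = 4), so it was lower later in WT too. Neither the gap at HD nor the change in WT was tested.

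None of the 12 tests of A shares passed an adjusted P of 0.05. Since the exact P cannot go below 0.029, a test at that floor still had an adjusted P of 0.11. The adjustment thus left little room for a pass, and no stability of the shares is read from it. The A share of TaZIFL7 had group means of 72.4% to 85.0%, and in the 4 comparisons tested it differed by -5.68 to 2.29 percentage points (exact permutation adjusted P from 0.34 to 0.97). That of TaZIFL1 had group means of 60.4% to 79.7%, and the later groups rest on few reads, down to 16 over the pair in WT at 22 DAA. In its 4 tests the adjusted P was from 0.34 to 0.75.

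**Figure D5:**
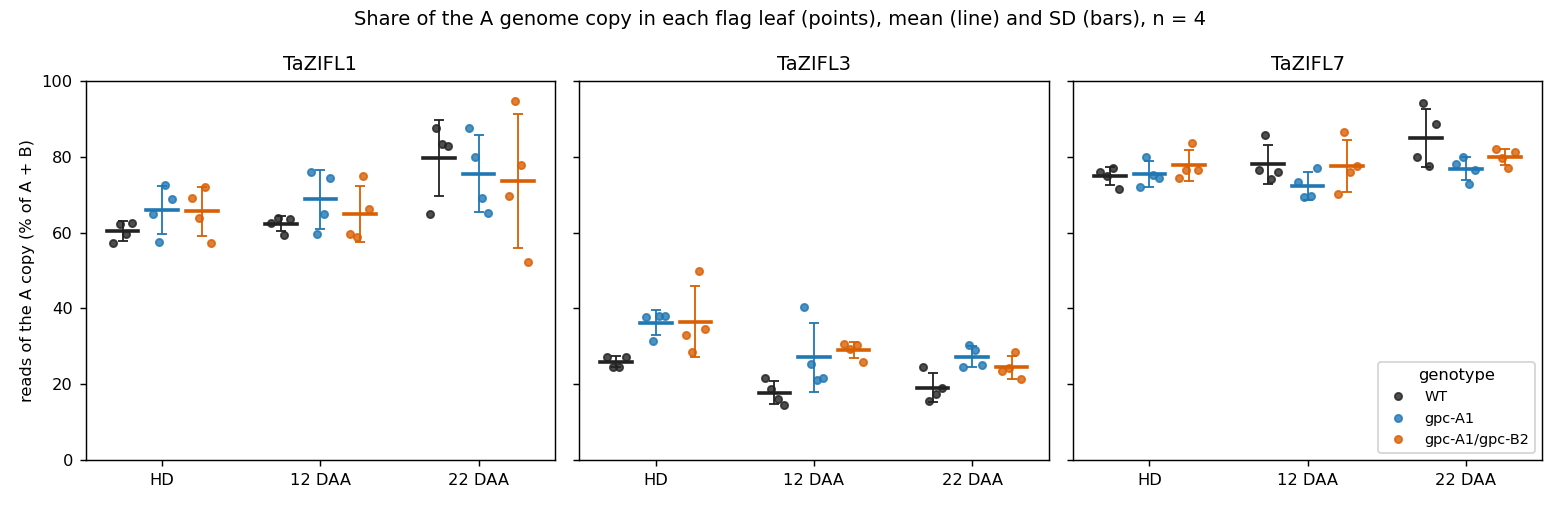
Share of reads from the A copy (y axis, % of A and B together) of TaZIFL1, TaZIFL3 and TaZIFL7 in single flag leaves, with group means (lines) and SD (bars) over 4 libraries. For TaZIFL3 the share is the lowest of the 3 genes, with group means from 17.7% to 36.5%.

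The named loci with patterns most like those of the members were found among 761 loci with a name and a mean normalized count of at least 50, by Pearson's r over 36 libraries. For TaZIFL1 3AS, these were its 3B copy (0.95) and 2 loci described as phosphoethanolamine methyltransferase, on 1BL and 1AL (0.85 and 0.84). For TaZIFL7 5AL, they were a SWEET13 sugar transporter on 6AL (0.93), a tetratricopeptide repeat protein on 2AS (0.90) and a DnaJ chaperone on 3B (0.89). For TaZIFL2-like1 3B, they were a NAC factor described as NAM-B1 on 6AS (0.78), a ribose-phosphate pyrophosphokinase on 2AL (0.74) and a beta-glucosidase on 2BL (0.72). For TaZIFL3 4AL, they were a TRANSPARENT TESTA 12-like protein on 5BL (0.73), a ubiquitin-conjugating enzyme (0.68) and a subunit of the vacuolar proton ATPase (0.68), both on 7AL. Among all loci at that level, the highest r was 0.98, 0.93, 0.83 and 0.89 for TaZIFL1 3AS, TaZIFL7 5AL, TaZIFL2-like1 3B and TaZIFL3 4AL. NAM is another name for the GPC genes, and the NAC locus described as NAM-B1 lies on an A genome arm. It may thus be GPC-A1 itself, the gene with a stop codon in both mutants, but its identity was not checked.

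Other genes of the ZIFL family, of vacuolar metal transport and of chelator synthesis were matched to loci by the same rule. From HD to 22 DAA, edgeR called 1 of 5 other ZIFL loci in gpc-A1 and 2 in the double mutant. It called 2.52% and 7.87% of all loci there. In the comparisons with WT at 12 DAA it called 0 of these loci, and 0.508% and 2.05% of all loci. At an unadjusted P under 0.05 there were 0 and 3, and DESeq2 called 0 and 1, against 1270 and 5161 of all loci. TaZIFL8 4AL fell by 2.39 ± 0.40 in gpc-A1 (log2, SE, edgeR adjusted P = 0.0070) and by 1.87 ± 0.38 in the double mutant (edgeR adjusted P = 0.0066), from means of 43.2 and 28.7 to 8.41 and 7.73 normalized counts. These later means rest on 4 to 14 reads a library in gpc-A1 and 5 to 17 in the double mutant. Its 4BS copy was not called, with means of 138.1 and 163.8 at HD and 174.6 and 156.3 at 22 DAA. TaZIFL2-like1 3AS rose by 2.68 ± 0.29 in the double mutant (edgeR adjusted P = 0.00022), from a mean of 5.07 to 32.8. For TaZIFL2-like1 3AS, another locus came within 1.01 counts of the listed values, and for TaZIFL8 4AL within 1.89. The identity of both is thus less sure than that of the members.

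Of 9 loci of vacuolar transporters, 1 was called in gpc-A1 and 4 in the double mutant from HD to 22 DAA. Over all loci, 2.52% and 7.87% were called. TaVIT2 5BL, of the family that moves iron into the vacuole, fell in both, with log2 changes of -2.25 ± 0.37 (SE, edgeR adjusted P = 0.0071) and -1.81 ± 0.35 (edgeR adjusted P = 0.0049). TaVIT1 2AL fell by 1.08 ± 0.23 in the double mutant (edgeR adjusted P = 0.0086). There too, TaNRAMP2, of a family of metal transporters that in Arabidopsis includes exporters from the vacuole, rose by 1.57 ± 0.34 for 4AS and 1.41 ± 0.25 for 4BL (edgeR adjusted P = 0.0087 and 0.0032). None of the 9 was called against WT at 12 DAA by edgeR, which called 0.508% of all loci for gpc-A1 and 2.05% for the double mutant. There, 1 in gpc-A1 and 0 in the double mutant had an unadjusted P under 0.05. DESeq2 called 0 of the 9 in each, against 1270 and 5161 of all loci.

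Of 7 loci of chelator synthesis, 3 were called against WT at 12 DAA in gpc-A1, where 0.508% of all loci were called, and 4 in the double mutant, where 2.05% were. All of these were lower, and 5 of the 7 were lower in sign in each comparison. DESeq2 called 4 and 5 of the 7, against 1270 and 5161 of all loci. TaNAAT1 1AL and TaNAAT2 1AL and 1BL, which encode nicotianamine aminotransferases, were lower than WT in gpc-A1, with log2 differences of -2.39 ± 0.37, -2.16 ± 0.22 and -3.39 ± 0.20 (SE, edgeR adjusted P = 0.0068, 0.00021 and 2.5e-06). The same loci had log2 differences of -2.67 ± 0.27, -2.62 ± 0.17 and -3.32 ± 0.25 in the double mutant (edgeR adjusted P = 0.00014, 4.2e-06 and 1.1e-05), and TaNAS3 2AS fell by 1.21 ± 0.21 (edgeR adjusted P = 0.0062). From HD to 22 DAA, TaNAAT2 1BL fell by 2.23 ± 0.33 in gpc-A1 (edgeR adjusted P = 0.0045), the only chelator locus called there. Over that interval, 2.52% of all loci were called in gpc-A1 and 7.87% in the double mutant. All 3 NAAT loci were called in the double mutant, where TaNAAT1 1AL, TaNAAT2 1AL and TaNAAT2 1BL had log2 changes of -2.93 ± 0.40, -2.30 ± 0.20 and -4.28 ± 0.32 (edgeR adjusted P = 0.00075, 6.2e-05 and 2.2e-05).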

How the data were processed

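RNA-seq was run on 36 flag leaf libraries, grouped by the genotype and time in their titles. Per the study's methods, the authors aligned single reads of 50 bases with GSNAP to the A and B contigs of the IWGSC wheat sequence, counted uniquely mapped reads in 139828 ranges with HTSeq, removed the lowest loci and deposited raw counts of 80168 loci. The strand setting of the counting is not given in the sources used here. No column of other samples was present.

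Counts of each pair of groups were tested with edgeR 4.0.16 (quasi-likelihood, TMM factors, R 4.3.3), two-sided, with Benjamini-Hochberg adjustment over 75375 loci (over 3 reads in 2 or more replicates of any group), and called at an adjusted P of 0.01 or less. SE is the absolute log2 fold change over the root of F. The members are all named. Of the lists of other genes, a locus is named where it was called in a comparison that also called a member. Loci and lists were chosen with earlier results of these data known. Shares used exact permutation tests (scipy 1.17.1). DESeq2 1.42.0, other factors, no filter, a replicate block, a single fit of all libraries and left-out replicates were alternatives. The tests were checked on simulated data with a fixed spread and changes larger than those of TaZIFL7 from WT. That check does not cover groups with few reads or a wide spread.

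Libraries with the same replicate number, 9 each, were multiplexed and shared sequencing lanes according to the methods, which pairs them. Deviations from group means correlated by 0.012 on average between libraries of the same number (26 of 144 pairs over 0.1) and by -0.004 between other numbers (66 of 432).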

Additional observations from a re-analysis of the deposited data

Results flagged for a closer look

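In 4 of 63 groups of 4 libraries (6.35%), 1 leaf lay far from the other 3, by Dixon's test at the 95% level, which flags about 1 in 20 groups by chance. All 4 are TaZIFL1, in 2 leaves. Replicate 3 of WT at HD had 651.6 normalized counts of the 3AS copy, against 271.3 to 298.1 in the others, and 440.1 of the 3B copy, against 176.5 to 203.5. Replicate 2 of gpc-A1 at 12 DAA had 270.6 of 3AS, against 64.6 to 74.8, and 182.5 of 3B, against 23.2 to 34.9. Both copies were high in the same leaf. Without replicate 2 of both groups, TaZIFL1 3AS was called from HD to 12 DAA in gpc-A1 (edgeR adjusted P = 0.0094, against 0.093 with all libraries).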

How the results depend on the processing

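No called result changed direction, and 473 of the recomputed values kept their side of the threshold, with 37 weaker and 11 stronger. The calls over all 75375 loci changed as well, and are given for comparison. They are not given for left-out replicate numbers or for an adjusted P of 0.05. In gpc-A1 from HD to 12 DAA, 0 members called became 1 (TaZIFL7 5AL) with DESeq2, with all 36 libraries in a single fit, with the replicate block and at an adjusted P of 0.05, and 0 to 1 with replicates left out. All loci called went from 245 to 1519 with DESeq2, 341 with all 36 libraries and 421 with the block. From HD to 22 DAA in gpc-A1, 2 members became 0 with the replicate block and 0 without replicate 1 of gpc-A1 at HD, and 0 to 2 with replicates left out. All loci called went from 1900 to 793 with the block and 120 without that library. In the double mutant from HD to 12 DAA, 0 members became 2 with DESeq2, 1 with all 36 libraries and 2 at an adjusted P of 0.05. All loci called went from 1192 to 3898 with DESeq2 and 2093 with all 36 libraries. From HD to 22 DAA in the double mutant, 5 members became 1 under 4 tests of the kinds in the methods, 4 with all 36 libraries (TaZIFL1 3B lost) and 0 to 5 with replicates left out. All loci called went from 5930 to 3311 under the 4 tests and 6798 with all 36 libraries. At 12 DAA, 1 against gpc-A1 became 0 with all 36 libraries, 0 without replicate 4 of WT (chosen after seeing the data) and 0 with any replicate left out. Against the double mutant, 1 member became 2 with DESeq2 and at an adjusted P of 0.05 (TaZIFL3 4BS added), 0 with the replicate block, 0 without replicate 4 of WT and 0 with any replicate left out. All loci called went from 1548 to 5161 with DESeq2, 1075 with the block and 732 without that WT library. At 22 DAA, 0 members against the double mutant became 2 with DESeq2, 1 with all 36 libraries and 1 at an adjusted P of 0.05. All loci called went from 140 to 1669 with DESeq2 and 676 with all 36 libraries. The causes were not tested. The replicate block changed no other call. Depth limits TaZIFL1 3B most, with 2 to 7 reads a library in WT at 22 DAA.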
